A study of Homo sapiens with 8 samples.

Results

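The genes described here are the well-expressed ZNF genes of 22RV1 cells, genes named as numbered zinc finger proteins. They were taken as every symbol made of ZNF, a number and at most 1 further letter, with a mean raw count of at least 500 over the 8 libraries of the study. Of 23346 gene symbols, 529 had such a name and 284 reached that count; these 284 are called the members below. The members were chosen by this mean count, taken over both groups of libraries, and so by their level and not by a difference between the groups, and all 284 members entered the test.

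22RV1 is an established human prostate cancer cell line, and the cells were at passages 16 to 17. They were transfected in suspension with either a miR-194 mimic, a synthetic RNA that stands in for the microRNA, or a negative control, each at 20 nM, with RNA taken after 36 h. Each group has 4 libraries. No untransfected library was analysed here, so transfection itself was common to both groups. Nothing in the labels tells whether replicates came from separate cultures, so the p-values reflect the spread of these libraries only, which may be technical. By its title, the series asks what miR-194 does after transcription in prostate cancer cells that become neuroendocrine.

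Most ZNF genes encode proteins with a row of C2H2 zinc fingers, small zinc-binding folds that read DNA sequence. A large share of them carry a KRAB domain near the start of the protein, which recruits the corepressor TRIM28 and through it histone methylation and heterochromatin proteins. KRAB zinc finger proteins are best known for silencing transposable elements, and many of their genes lie in clusters of related copies on chromosome 19. A microRNA lowers the level of transcripts that pair with its seed, the bases 2 to 8 counted from its 5′ end. The mature sequence of miR-194-5p is shown because the site counts below follow from it; it is RefSeq's, and the capitals mark the seed.

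miR-194-5p: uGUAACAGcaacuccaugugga

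In DNA letters a full match to this seed followed by A is CTGTTACA (an 8mer site). The shorter forms are CTGTTAC (7mer-m8), TGTTACA (7mer-A1) and TGTTAC (6mer). A site below means an 8mer or a 7mer on the transcript strand in the longest annotated 3′ UTR of the gene, and each gene is counted under its best class.

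The library totals ran from 32485036 to 47248241 counts, and the members took 1.03% to 1.13% of the counts of a library. The summed level of 8 luminal prostate epithelium markers was 5013 to 5456 CPM (counts corrected for library size). In contrast, 5 endothelial markers summed to at most 0.153 CPM, with PECAM1 and CDH5 at 0 in all libraries, and 3 basal epithelium markers to at most 0.114 CPM. Of 7 fibroblast markers 4 were below 1 CPM, and their sum was 44.5 to 56.1 CPM over both groups. Of 6 leukocyte markers 5 were below 1 CPM, and their sum was 6.53 to 9.07 CPM with the mimic and 4.75 to 5.22 CPM in the controls. The part of these low levels in the results was not tested. In bulk RNA, fewer cells that express a gene and less of its RNA per cell cannot be told apart.

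The mimic libraries differed from the controls by small amounts over most of the members, and in both directions. Of the 284 members, 36 rose and 49 fell past an adjusted p of 0.05 and 199 did not pass, so 29.9% were called. The same test called 38.1% of all 14977 genes tested (18.3% higher and 19.9% lower). It called 46.1% of the 9569 genes with a mean count of at least 500 (23.6% higher and 22.6% lower), so the members' share was below that of all genes at their level. With the replicate number as a block, 141 members were called, 49.6%, beside 50.9% of all genes and 60.2% of genes with that count. These calls come from the quasi-likelihood test of edgeR, adjusted by Benjamini-Hochberg over all genes, and no test was made of the list itself.

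The size of the changes was limited. The members' log2 fold changes, mimic over control, ran from -0.64 to 0.66 with a median of 0.01, and their median size without sign was 0.12. Over genes with a mean count of at least 500 that size was 0.13, with a median standard error of 0.05 against 0.06 for the members. No member reached a 2-fold change. Only 4 members, 1.41%, were called with at least a 1.5-fold change, compared with 6.54% of all genes and 5.08% of genes at that count. Without mimic replicate 3 there were 2 such members, and without control replicate 2 there were 7. With replicates 1 and 2 alone there was 1, and with replicates 3 and 4 alone there were 6. The 4 mimic and 4 control values did not overlap for 82 members, where 36.9% of all genes and 44.5% of genes with that count had no overlap.

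**Figure D1:**
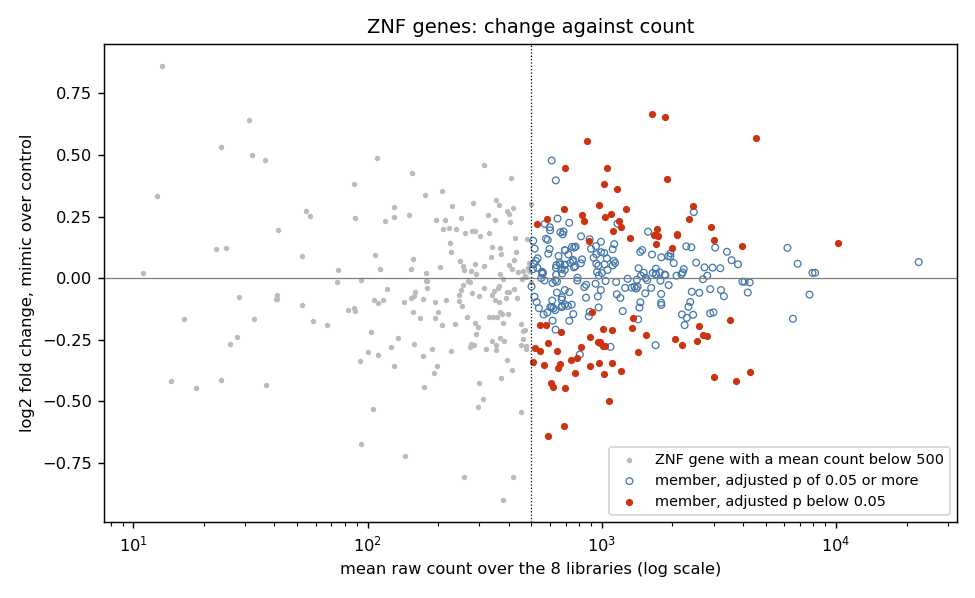
Log2 fold change of each tested ZNF gene, mimic over control (y axis), against its mean raw count over the 8 libraries (x axis, log scale). Filled red points are members past an adjusted p of 0.05, open blue points are the other members, grey points are ZNF genes below the count of 500 (dotted line); the members lie between -0.64 and 0.66.

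ZNF48 and ZNF12 had the largest rises. ZNF48, a zinc finger gene on chromosome 16 with no KRAB pattern, had 33.7, 33.4, 28.9 and 25.8 CPM in control replicates 1 to 4 and 48.4, 51.3, 47.8 and 45.6 CPM in mimic replicates 1 to 4. Each mimic library was above each control library, and the log2 fold change was 0.66 ± 0.08 (SE, n = 4 per group; edgeR adjusted p = 6.57e-05). ZNF12, a KRAB gene on chromosome 7, had 34.1, 36.5, 34.6 and 34.3 CPM in the controls and 57.3, 56.9, 52.9 and 52.6 CPM with the mimic. The controls were close to each other, the groups were far apart, and the log2 fold change was 0.65 ± 0.05 (edgeR adjusted p = 6.86e-07). Neither gene has an 8mer, 7mer or 6mer site in its annotated 3′ UTR.

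ZNF512B, a gene without a KRAB pattern that has been linked to TGF-beta signalling, had 91.5, 92.3, 88.5 and 80.5 CPM in the controls and 125, 137, 133 and 128 CPM with the mimic. The groups did not overlap, with a log2 fold change of 0.57 ± 0.05 (edgeR adjusted p = 3.91e-06). ZNF622, the human counterpart of a yeast factor that matures the large ribosomal subunit in the cytoplasm, had 38.0, 39.8, 40.8 and 38.1 CPM in the controls and 51.3, 50.6, 55.6 and 49.6 CPM with the mimic. Again there was no overlap, and the log2 fold change was 0.40 ± 0.05 (edgeR adjusted p = 4.75e-05). ZNF593, likewise related to a yeast ribosome assembly factor, was outside the naming rule because its groups overlapped and was picked after its values were seen. It had 17.4, 21.2, 13.96 and 14.6 CPM in the controls and 26.0, 26.2, 26.9 and 20.0 CPM with the mimic. Only mimic replicate 4 fell below the highest control, and the log2 fold change was 0.56 ± 0.14 (edgeR adjusted p = 0.00955).

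The other 8 of the 12 largest rises without overlap were ZNF629, ZNF215, ZNF208, ZNF407, ZNF512, ZNF841, ZNF654 and ZNF506, with log2 fold changes from 0.45 down to 0.26. ZNF215 is an imprinted KRAB gene, and its level was 21.3 ± 0.810 CPM in the controls and 27.8 ± 0.705 CPM with the mimic (SD, n = 4 each). ZNF208 has the most C2H2 patterns of the members, 36, and went from 24.6 ± 2.04 to 31.5 ± 1.97 CPM. ZNF512 shares 35.7% of the 50-base stretches of its transcript with other annotated genes. How reads from such stretches were counted is not given, so their effect on its counts is not known. Among the 12, none has an 8mer or 7mer site, and ZNF407 and ZNF506 have a 6mer.

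ZNF702P and ZNF615 had the largest falls. ZNF702P, a pseudogene on chromosome 19 that shares 12.2% of its 50-base stretches with other genes, had 18.7, 16.5, 17.0 and 16.9 CPM in the controls and 11.4, 13.3, 9.21 and 10.5 CPM with the mimic. Each mimic library was below each control library, with a log2 fold change of -0.64 ± 0.10 (edgeR adjusted p = 3.37e-04). ZNF615, a KRAB gene, had 21.9, 19.9, 19.7 and 18.0 CPM in the controls and 14.7, 14.6, 12.5 and 10.9 CPM with the mimic. The groups did not overlap, and the log2 fold change was -0.60 ± 0.10 (edgeR adjusted p = 5.28e-04).

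ZNF331, an imprinted KRAB gene, had 32.9, 30.7, 27.2 and 29.7 CPM in the controls and 23.3, 22.7, 19.3 and 20.2 CPM with the mimic, with no overlap. Its log2 fold change was -0.50 ± 0.07 (edgeR adjusted p = 2.98e-04). ZNF518A, which has no KRAB pattern, had 116, 105, 124 and 121 CPM in the controls and 89.9, 82.6, 88.2 and 96.6 CPM with the mimic. It was among the more abundant of the falling members, its groups did not overlap, and its log2 fold change was -0.38 ± 0.06 (edgeR adjusted p = 3.43e-04). The other 8 of the 12 largest falls without overlap were ZNF519, ZNF845, ZNF300, ZNF678, ZNF714, ZNF765, ZNF273 and ZNF736, from -0.45 to -0.36. ZNF678 fell from 103 ± 4.16 to 76.9 ± 9.41 CPM and ZNF714 from 83.0 ± 5.20 to 63.0 ± 6.77 CPM (SD, n = 4 each). Of these 24 genes, 1 lost its call in any of 16 other settings, ZNF841, at an edgeR adjusted p of 0.0687 with replicates 3 and 4 alone.

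**Figure D2:**
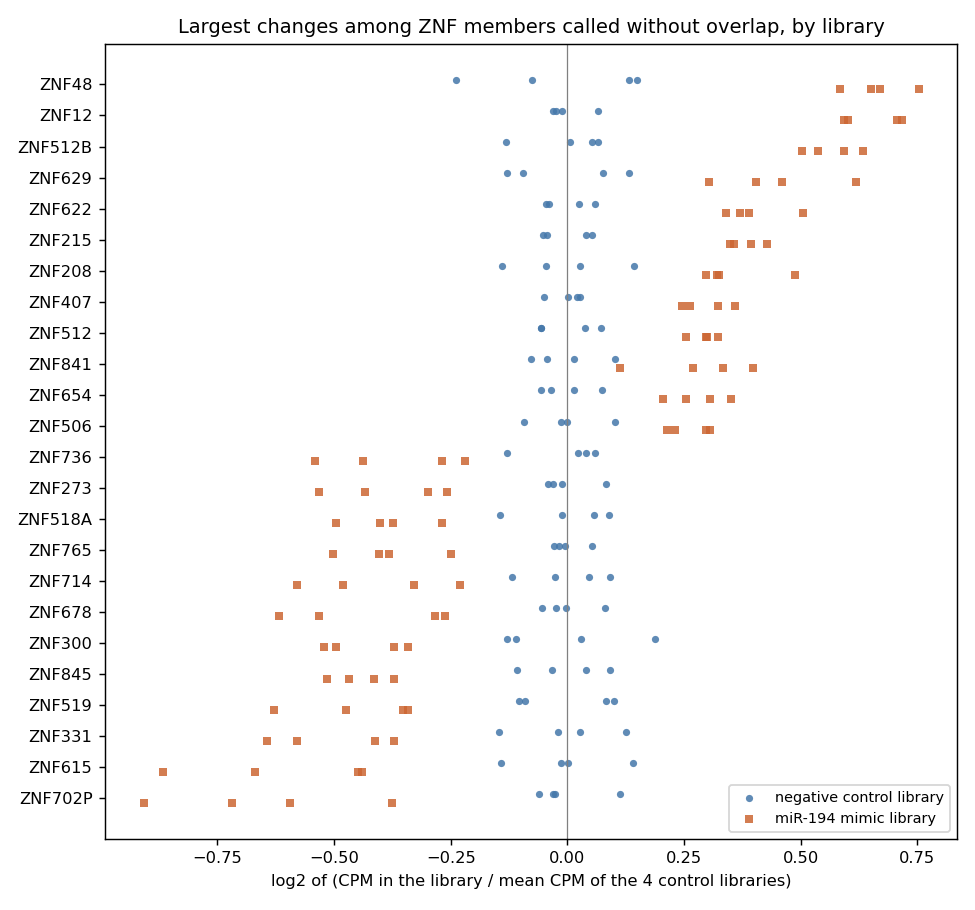
Level of the 12 largest rises and 12 largest falls among members past an adjusted p of 0.05 whose groups do not overlap, as log2 of each library's CPM over the mean of the 4 control libraries (x axis). Circles are the 4 control libraries and squares the 4 mimic libraries of a gene; in each of the 24 genes all squares lie to one side of all circles.

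A miR-194-5p site was found in 81 of the 277 members with an annotated 3′ UTR, 29.2%, compared with 21.5% of all tested genes that have one and 23.8% of those with a mean count of at least 500. Of the 81 members with a site, 5 rose and 21 fell, and their median log2 fold change was -0.10. Of the 196 without one, 31 rose and 26 fell (15.8% and 13.3%), with a median of 0.04. Of genes with a mean count of at least 500 and no site, 26.9% rose and 16.1% fell. Genes with a mean count of at least 500 had the same medians, -0.10 with a site and 0.04 without. Their share of falls with a site was larger, 42.9%, against 25.9% of the members with a site; the difference between these shares was not tested. With the replicate block the shares were 49.5% and 40.7%. The median length of the 3′ UTR was 3331 bases in members with a site and 1922 in those without. Over all members it was 2266 bases, against 1630 over all genes tested and 1774 over genes with a mean count of at least 500. The part of this length in the members' higher share of sites was not tested.

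By best site, 2 of 13 members with an 8mer fell and 1 rose, and the median change was 0.06 on the log2 scale. Of the 27 with a 7mer-m8, 7 fell and 2 rose (25.9% lower, median -0.10). Of the 41 with a 7mer-A1, 12 fell and 2 rose (29.3% lower, median -0.11). Among genes with a mean count of at least 500 the order was different. Of the 487 with an 8mer, 51.5% fell and 10.1% rose (median -0.16). With a 7mer-m8, 38.8% fell and 15.7% rose (median -0.07). With a 7mer-A1, 42.0% fell and 14.2% rose (median -0.09). The 13 members with an 8mer are few, and these differences were not tested. Of the 16 members with 2 sites, 6 fell and 0 rose by edgeR (37.5% lower), with a median of -0.12. The share over all genes with 2 sites was not counted. There were 3 members with more: ZNF518A with 4 sites and ZNF527 with 5 fell, and ZNF639 with 3 rose. These 2 genes, ZNF527 and ZNF639, were picked for their number of sites.

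The sites of falling members that carry these counts are shown as windows of 30 bases on the transcript strand, read from GENCODE 29 transcripts in GRCh38, with the site in capitals. ZNF615 has an 8mer near the end of its 3′ UTR, at chr19:51991353-51991382 on the minus strand, and a 7mer-A1 at chr19:51991814-51991843, both outside annotated coding sequence. ZNF331 has a pair of 7mer-A1 sites, at chr19:53578477-53578506 and chr19:53579738-53579767 on the plus strand. ZNF845 has a pair of 7mer-m8 sites, and that at chr19:53354523-53354552 on the plus strand is shown. In ZNF518A, at chr10:96162065-96162094 on the plus strand, the copy shown in capitals is followed within the window by a second copy in lower case, which has its own match to TGTTACA.

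ZNF615 8mer: cggtttttcttaCTGTTACAaataaaaatc
ZNF615 7mer-A1: ggaaagtgaaatTGTTACAatactgttaac
ZNF331 first 7mer-A1: tattacatatatTGTTACAattgttctatt
ZNF331 second 7mer-A1: aacataaaaagtTGTTACActtcatcaaaa
ZNF845 7mer-m8: ctttaataaaaaCTGTTACgggtttttatg
ZNF518A 7mer-A1: tatatgatttttTGTTACAttgttacaagt

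An annotated 3′ UTR of a ZNF gene can hold coding sequence of another transcript, as where a short form ends early and runs on through the exon that encodes the fingers. For 69 members at least 1% of the longest 3′ UTR was coding in another annotated transcript of the gene. In 5 members with a site, all of them with the KRAB pattern, each site lay in such coding sequence. ZNF226, the only member with an 8mer that rose, was among them, and so was ZNF300 among the 12 largest falls. Their sites are shown for comparison with those above, at chr19:44176117-44176146 on the plus strand and chr5:150896409-150896438 on the minus strand. The 76 members with a site outside all annotated coding sequence of their gene had 4 rises and 19 falls, and a median change of -0.08 on the log2 scale. The corresponding 2048 genes with a mean count of at least 500 had 278 rises and 894 falls, with a median of -0.10. This division was made after the sites had been seen.

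ZNF226 8mer: tggaaaaggcttCTGTTACAgcccagttct
ZNF300 7mer-A1: aagctgtgtatgTGTTACAtgtggaaaagc

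The 8mer members besides ZNF615 had modest changes. ZNF337 had 34.4, 33.5, 35.7 and 35.4 CPM in the controls and 30.2, 31.4, 27.0 and 31.96 CPM with the mimic. Its groups did not overlap, and its log2 fold change was -0.20 ± 0.06 (edgeR adjusted p = 0.0145). With replicates 1 and 2 alone it was not called (edgeR adjusted p = 0.0714). ZNF226 had 19.8, 19.3, 20.6 and 20.3 CPM in the controls and 21.4, 22.2, 22.0 and 23.3 CPM with the mimic. The groups were close but did not overlap; the log2 fold change was 0.15 ± 0.05 at an edgeR adjusted p of 0.0319, and the call was lost in 8 of 16 other settings. The 8mer of ZNF441, like that of ZNF226, lay in coding sequence of another transcript. ZNF441 had 18.6, 16.6, 25.2 and 25.3 CPM in the controls and 14.8, 14.8, 19.3 and 20.0 CPM with the mimic. Its level was higher in replicates 3 and 4 of both groups, the groups overlapped, and it was not called (edgeR adjusted p = 0.157). With the replicate block its log2 fold change was -0.31 at an edgeR adjusted p of 1.55e-04. ZNF250 (-0.21) and ZNF329 (0.22) were also called only with the block among these fits of all 8 libraries, at edgeR adjusted p of 0.00473 and 0.00337. ZNF426 and ZNF283, at 0.12 each, were not called with or without it.

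The members were divided by a sequence pattern of the KRAB A box in the translated coding sequence of any GENCODE 29 transcript, which 176 of the members had. The pattern was not checked against annotated domains, so a member without it may still have a KRAB domain. Of the 176 members with the pattern, 18 rose and 39 fell (10.2% and 22.2%), and their median change was -0.02 on the log2 scale. The 103 coding members without the pattern had 18 rises and 8 falls (17.5% and 7.77%), with a median of 0.06. Of all genes with a mean count of at least 500, 23.6% rose and 22.6% fell. The share of falls with the pattern was near that of these genes, and the other shares were lower. The remaining 5 members are annotated as pseudogenes, of which 2 fell. With the replicate block the counts were 32 rises and 54 falls with the pattern and 37 rises and 15 falls without it. The difference between the classes was not tested. Taking KRAB pattern and site together, 54 members had the KRAB pattern and a site, and of these 1 rose and 18 fell (33.3% lower, median -0.12). That share of falls was not above that of all genes with a mean count of at least 500 and a site, of which 42.9% fell and 13.8% rose (median -0.10). The 122 with the pattern and no site had 17 rises and 21 falls (13.9% and 17.2%, median 0.01). Without the pattern, the 27 members with a site had 4 rises and 3 falls (median 0.01). The 76 with neither had 14 rises and 5 falls (18.4% and 6.58%, median 0.08). Of all genes with a mean count of at least 500 and no site, 26.9% rose and 16.1% fell.

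**Figure D3:**
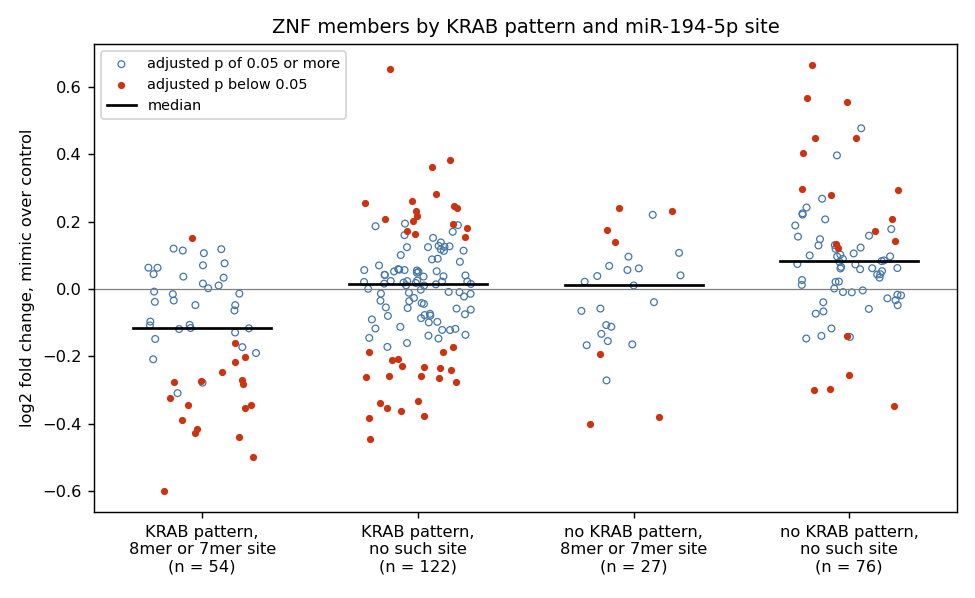
Log2 fold change of each coding member, mimic over control (y axis), in 4 classes by KRAB pattern and 8mer or 7mer site in the longest annotated 3′ UTR. Filled points passed an adjusted p of 0.05, horizontal spread within a class is only for display, and black lines are the medians, from -0.12 at the left to 0.08 at the right.

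The level of the members also moved with the replicate number. The median centred log2 CPM of the members, each gene's log2 CPM minus its mean over the 8 libraries, was 0.05, 0.03, -0.01 and -0.05 in control replicates 1 to 4. It was 0.05, 0.07, -0.07 and -0.06 in mimic replicates 1 to 4. Replicates 3 and 4 were therefore lower than 1 and 2 in both groups, by a median of 0.10 over the members and of 0.003 over all genes tested. The ZBTB, ZSCAN, ZKSCAN and ZFP genes, other zinc finger families, had a median fall of 0.11 between these replicates. The labels name no batch, and the cause was not tested. Since each group has 2 libraries on either side, this shift adds to the spread within a group rather than to the difference between groups.

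Within the replicate numbers the KRAB members with a site kept their direction, as did all genes with a site. Their median centred log2 CPM was 0.11, 0.06, 0.06 and -0.02 in the controls and 0.01, 0.02, -0.15 and -0.12 with the mimic. The ranges of the groups overlapped, but the mimic library was the lower in each of the 4 same-numbered pairs, by 0.11, 0.04, 0.21 and 0.10. Over all genes with a mean count of at least 500 and a site the mimic library was likewise the lower in each pair, by 0.11, 0.07, 0.14 and 0.10. With replicates 1 and 2 alone edgeR called 17 of the KRAB members with a site lower, 31.5%, beside 40.6% of all such genes with a site. With replicates 3 and 4 alone it called 23 lower, 42.6%, beside 42.5%. The members with neither the pattern nor a site had the opposite order in each pair, the mimic library being higher by 0.07, 0.10, 0.06 and 0.09. Genes with a mean count of at least 500 and no site were also higher in each pair, by 0.04, 0.03, 0.06 and 0.05. The remaining classes of members had no constant order. Mimic minus control was -0.02, 0.08, -0.06 and 0.04 for members with a site and no KRAB pattern. For members with the pattern and no site it was -0.01, 0.05, -0.04 and -0.03.

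**Figure D4:**
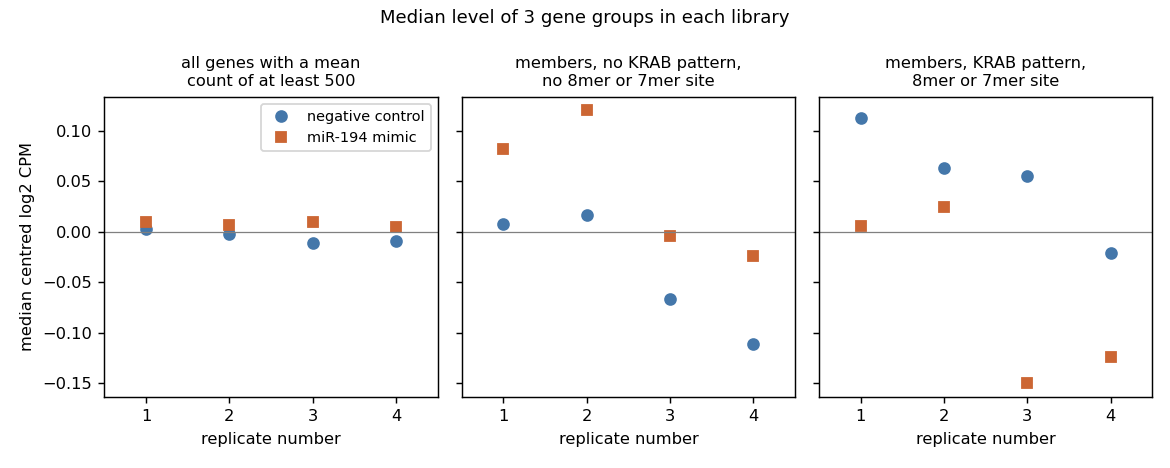
Median centred log2 CPM (y axis) of 3 groups of genes in each library, by replicate number (x axis); circles are control and squares mimic libraries. In the right panel each square lies below the circle of the same number, while the middle panel has the opposite order, and in both panels replicates 3 and 4 lie below 1 and 2 of the same group.

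The genes of the family often lie side by side, and called neighbours moved both alike and apart. Of the members 124 are on chromosome 19, where 13 rose and 28 fell (10.5% and 22.6%). The 160 on other chromosomes had 23 rises and 21 falls (14.4% and 13.1%). Of all genes with a mean count of at least 500, 23.6% rose and 22.6% fell. KRAB members make up 106 of the 124 and 70 of the 160. Of those 106, 11.3% rose and 23.6% fell, and of those 70, 8.57% rose and 20.0% fell. The difference between the chromosomes was not tested. In GENCODE 29, 76 pairs of members are next to each other with no other protein-coding gene between, 52 of them on chromosome 19. In 49 of the 76 pairs the log2 fold changes had the same sign. Both genes of a pair were called in 9, in the same direction in 5 and in opposite directions in 4. No such count was made for neighbouring genes outside the members. Among the pairs alike in direction, ZNF619 (-0.34) and ZNF620 (-0.35) have annotated starts only 18 bases apart. How reads from there were counted is not given. ZNF615, with a log2 fold change of -0.60, is next to ZNF614, which rose by 0.25. ZNF614 had 18.5, 17.9, 18.5 and 17.8 CPM in the controls and 22.6, 23.8, 20.7 and 19.9 CPM with the mimic, with no overlap. ZNF208, which rose by 0.36, lies between ZNF43 (-0.17) and ZNF257 (-0.24), which both fell. Reads can match several genes of such clusters: 75 members share at least 5% of the 50-base stretches of their transcript with another annotated gene, and ZNF320 shares 99.5%. Among the 209 members below that share, 28 rose and 33 fell.

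The 3 most abundant members had log2 fold changes of at most 0.14. ZNF664 had 558, 527, 535 and 506 CPM in the controls and 565, 604, 525 and 531 CPM with the mimic, with overlapping groups and a log2 fold change of 0.07 ± 0.05 (edgeR adjusted p = 0.310). ZNF24, a zinc finger repressor, had 235, 223, 243 and 233 CPM in the controls and 261, 261, 255 and 254 CPM with the mimic. The groups did not overlap and the log2 fold change was 0.14 ± 0.03 (edgeR adjusted p = 0.00574). With replicates 3 and 4 alone it was not called (edgeR adjusted p = 0.113). ZNF638, which recruits the HUSH silencing complex to retroviral DNA, was at 194.1 ± 2.63 and 197 ± 7.95 CPM (SD, n = 4 each) and was not called.

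Members with known roles in silencing or in transcript quality control were looked at as well, chosen for those roles after the fit. ZNF93, a KRAB protein that represses LINE-1 elements, had 30.6, 30.9, 28.3 and 29.6 CPM in the controls and 25.9, 25.3, 21.5 and 21.5 CPM with the mimic. It fell without overlap by 0.34 on the log2 scale (SE 0.07; edgeR adjusted p = 0.00222), and it has a 7mer-A1 site. ZNF91, which represses SVA elements, was not called at a log2 fold change of 0.12 ± 0.06 (edgeR adjusted p = 0.151). ZNF274, which recruits SETDB1 to zinc finger genes themselves, had 27.0, 25.3, 26.4 and 26.3 CPM in the controls and 29.5, 31.6, 30.3 and 31.99 CPM with the mimic. It rose without overlap, by 0.23 ± 0.05 (edgeR adjusted p = 0.00208). ZNF445, which protects imprinted methylation, was at -0.15 ± 0.10, and ZNF598, which marks collided ribosomes, at 0.27 ± 0.14; neither was called (edgeR adjusted p = 0.268 and 0.180).

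The genes nearest the count of 500 were looked at on either side. The 3 members just above it, ZNF576, ZNF600 and ZNF619, had log2 fold changes of -0.03, 0.04 and -0.34, and the 3 genes just below, ZNF358, ZNF239 and ZNF471, had -0.02, 0.30 and 0.03. Of the 245 ZNF genes below the count, 199 could be tested, and of these 16 rose and 26 fell, 21.1%, with a median of -0.06. The share over all genes tested, which include those with higher counts, was 38.1%. A site was found in 17.7% of the lower-count genes tested that have a 3′ UTR, against 29.2% of such members. Their median 3′ UTR had 1398 bases, against 2266 for the members.

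The partners of KRAB proteins moved in both directions. Of 30 corepressor and heterochromatin genes, all tested, 6 rose and 8 fell, 46.7%, near the 46.1% of all genes with a mean count of at least 500, and the median change was 0.01 on the log2 scale. TRIM28, the corepressor that KRAB binds, had 470, 483, 458 and 456 CPM in the controls and 504, 503, 514 and 525 CPM with the mimic. The groups did not overlap, and the log2 fold change was 0.13 ± 0.03 (edgeR adjusted p = 0.00601). SETDB1, the histone methyltransferase that TRIM28 recruits, rose by 0.16 ± 0.04 (edgeR adjusted p = 0.0141). CBX5, a heterochromatin protein, had 1118, 1039, 1087 and 1059 CPM in the controls and 733, 723, 640 and 708 CPM with the mimic. It fell by 0.62 on the log2 scale (SE 0.04; edgeR adjusted p = 9.33e-07), and its 3′ UTR has 3 sites. SUMO2, which supplies the small protein tag used in TRIM28 silencing and has an 8mer, fell from 276 ± 10.6 to 163 ± 6.48 CPM. RBBP4, a histone-binding chaperone with 3 sites, fell by 0.41, and GATAD2A, a NuRD subunit with 1 site, rose by 0.34.

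Zinc finger factors outside the ZNF symbols had shares of calls near that of the members. Of 84 C2H2 factors listed by name, 66 were tested, and 8 rose and 13 fell (31.8%, median -0.005). KLF2 rose by 1.07 on the log2 scale from 0.857 ± 0.171 CPM, a low level, CASZ1 rose by 0.49, and GLI3 (-0.72) and PRDM2 (-0.37) fell. Of 78 ZBTB, ZSCAN, ZKSCAN and ZFP genes, 71 were tested, and 12 rose and 9 fell (29.6%, median -0.01). ZKSCAN2, with 4 sites and an 8mer among them, had 18.8, 17.3, 21.1 and 18.1 CPM in the controls and 9.18, 9.45, 10.6 and 10.6 CPM with the mimic. Its log2 fold change was -0.92 ± 0.08 (edgeR adjusted p = 3.96e-06), beyond that of any member. ZBTB10 (-0.70) and ZBTB5 (-0.50) fell and ZBTB7B (0.54) rose.

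The short words GACGTA and GACAGTA were searched in the 3′ UTRs on the transcript strand, since an earlier scan of these data had picked them out. They were in 36 members, 13.0%, against 13.9% of all tested genes with a 3′ UTR. Of the 36, 7 rose and 5 fell (19.4% and 13.9%). The 241 members with a 3′ UTR and neither word had 29 rises and 42 falls. Over all genes with a mean count of at least 500 the shares were 23.6% higher and 22.6% lower. The difference between these groups was not tested. Of the 24 largest changes, 3 hold one of these words, and they did not move the same way. ZNF12, which rose, has GACGTA at chr7:6688976-6689005 on the minus strand of GRCh38. ZNF48, which rose, has GACAGTA at chr16:30399237-30399266 on the plus strand. ZNF765, which fell by 0.38 on the log2 scale, has GACAGTA at chr19:53424630-53424659 on the plus strand. A match is a description of the letters only.

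ZNF12 GACGTA: tctgtaaattttGACGTAaatagtttgagc
ZNF48 GACAGTA: atagggattggaGACAGTAaccttgaagct
ZNF765 GACAGTA: ctgaggtgaaatGACAGTAagacttctcca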

How the data were processed

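Per the labels' protocols, the 8 libraries were made with an mRNA kit and sequenced. The authors deposited raw read counts per gene symbol, and 3370 of the 23346 symbols had no count in any library. Per the submitters' processing notes, the tools included STAR, cutadapt 1.8.1, edgeR 3.3, R 3.2.3 and FastQC, and the build was hg19. For the counter, annotation, strand setting and treatment of shared reads: not given in the sources used here.

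The main test used edgeR 4.0.16 (R 4.3.3; filterByExpr, TMM, robust quasi-likelihood fit, group as the only term) and adjusted over all genes tested. CPM use TMM library sizes, except the marker sums, which use library totals without TMM. Single-library log2 values use a prior count of 2. Alternatives were DESeq2 1.42.0 and limma-voom 3.58.1, other scaling, no filter, the replicate block, replicate subsets and each library left out. Named members are the 12 largest called rises and falls without overlap, the 3 most abundant, 3 on each side of the count minimum and 8 with an 8mer and the smallest p; of other lists, the 4 smallest p. The members and lists were chosen with earlier results of these data known.

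Genes were joined by symbol to GENCODE 29 (GRCh38), not the build of the counts: 274 members by the same symbol and 10 by a RefSeq synonym. The 3′ UTR searched for sites was the longest of at least 50 bases. KRAB and C2H2 patterns were searched in translated GENCODE coding sequences, where RefSeq proteins had been planned. Tables were handled in Python 3.11.15 with pandas 2.3.3 and numpy 2.4.6.

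On simulated data for this comparison (14896 genes), calls were made for 84% of 50 genes changed 1.25-fold, 98% at 1.5-fold, 98% at 2-fold and 100% at 3-fold. Of the genes left unchanged, 12 were called. The simulated counts held no shift by replicate number, unlike the data. Counts of replicates were further apart than sampling gives (3.77 to 17.4 chi-square units per degree of freedom), so each was kept. Both groups number their replicates 1 to 4 in the titles. Deviations from the group means were correlated between libraries of the same number ( 0.606, 0.568, 0.237 and 0.716), which met the rule for pairing, above 0.1. The exchanged pairs within replicates 1 and 2 and within 3 and 4 met it too (0.319 to 0.546), so the block may stand for that division. No day or batch is named in the labels. Mature miR-194 was not analysed here.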

Additional observations from a re-analysis of the deposited data

Results flagged for a closer look

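In 3 of the 104 groups of 4 libraries screened, over the named genes, 1 library lay far from the other three; chance alone does so in about 1 in 20 groups. Mimic replicate 4 had the highest level of ZNF208, 34.4 CPM, with the others between 30.2 and 30.7 CPM. Control replicate 3 had the highest level of ZNF329, 14.7 CPM, with the others at or below 12.1 CPM, and without that library ZNF329 was called at a log2 fold change of 0.30 (edgeR adjusted p = 0.0212). Mimic replicate 3 had the lowest level of PRDM2, 37.9 CPM, with the others between 40.3 and 40.6 CPM.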

How the results depend on the processing

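With the replicate block, 141 members were called, 69 of them higher; all 85 called without it were among them. The block gave 76 calls among the lower-count ZNF genes (33 higher, 43 lower), 13 rises among the C2H2 factors by name and 36 calls among the ZBTB, ZSCAN, ZKSCAN and ZFP genes (21 higher, 15 lower). With replicates 3 and 4 alone, 7 lower-count ZNF genes rose. With a mean count of at least 1000 the members numbered 146, with 49 calls and 22 falls. In the other settings with all members the calls ran from 74 to 90, with 74 to 85 when 1 library was left out, and falls among the ZBTB, ZSCAN, ZKSCAN and ZFP genes ran from 5 (without mimic replicate 3) to 11. The 209 members with little shared sequence, a division made after seeing the data, had 61 calls. Without the filter 28.2% of the members and 27.4% of all genes were called, since that total then includes many genes with few counts. The members' median log2 fold change stayed near 0 on either side (-0.02 to 0.03). The median with a site stayed below 0 (-0.11 to -0.04) and that without one above 0 (0.02 to 0.06) in every setting run. Of the values of named genes in other settings, 807 kept their direction and side of the threshold, 10 gained and 15 lost the call, and 0 turned; the cause was not tested. On simulated data the smallest fold tried was recovered least often, and most members moved by less than that fold, so members not called are not shown to be unchanged.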
